A study of Mus musculus with 11 samples.

Results

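Ank, Tmem163 and Cadm1 encode membrane proteins of microglia, the resident macrophages of the brain, and were chosen by name from the deposited count table because their levels were low in mice without Tyrobp. They are 3 of 55401 rows, and all 3 were among the 20390 genes that passed the filter on low counts. The study sequenced RNA from microglia of mice that differ in Tyrobp, the gene for DAP12, the adaptor through which the receptor TREM2 signals, and in Inpp5d, the gene for the lipid phosphatase SHIP1. Microglia were collected from brain by flow cytometry as live cells positive for CD11b and CD45. Every mouse had the C57BL/6 strain label, was 9 to 10 months old and carried NLGF, App knock-in alleles that lead to amyloid plaques. The 11 libraries comprised 3 of Tyrobp-/-;Inpp5d+/-;NLGF (called the compound mutant here), 2 of Tyrobp-/-;NLGF, 3 of Inpp5d+/-;NLGF (called the Inpp5d heterozygote) and 3 of NLGF. Tyrobp and Inpp5d alleles are written as whole-animal genotypes with no cell type given for them, and mice without the NLGF alleles were not analysed here. The labels do not tie libraries to animals, so a p value here reads only how far libraries of a genotype spread, which may be technical.

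ANK is a transmembrane protein that brings pyrophosphate and ATP to the outside of the cell, where pyrophosphate holds back the growth of calcium phosphate crystals. TMEM163 is a zinc efflux transporter of the plasma membrane and of vesicles. In human and rat cells it has been found bound to the lysosomal channel TRPML1 and to ATP-gated P2X channels. CADM1 is an adhesion molecule of the immunoglobulin superfamily that binds copies of itself, nectins and the lymphocyte receptor CRTAM, and is otherwise best known from neurons, mast cells and a class of dendritic cells.

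The deposited annotation (GRCm38) places Ank (ENSMUSG00000022265.7) on the plus strand of chromosome 15, from 27466677 to 27594909, with 2 transcripts and 3610 bases of merged exons. Tmem163 (ENSMUSG00000026347.13) lies on the minus strand of chromosome 1, from 127486546 to 127679548, with 5 transcripts and 4292 exonic bases. Cadm1 (ENSMUSG00000032076.20) lies on the plus strand of chromosome 9, from 47530173 to 47858115, with 11 transcripts and 11798 exonic bases. None of the 3 genes shares a chromosome with Tyrobp, which is on chromosome 7. Tmem163 and Inpp5d are both on chromosome 1, 39.9 Mb apart.

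The promoters of Ank and Tmem163 are shown because these genes had the widest gaps between Tyrobp genotypes. Each runs from 250 bases before to 50 bases after the RefSeq start site (GRCm38.p6), 5′ to 3′ on the strand of the gene, at chr15:27466427-27466726 for Ank and at chr1:127677972-127678271 for Tmem163. Capitals mark the 1 match among the motifs searched.
Ank: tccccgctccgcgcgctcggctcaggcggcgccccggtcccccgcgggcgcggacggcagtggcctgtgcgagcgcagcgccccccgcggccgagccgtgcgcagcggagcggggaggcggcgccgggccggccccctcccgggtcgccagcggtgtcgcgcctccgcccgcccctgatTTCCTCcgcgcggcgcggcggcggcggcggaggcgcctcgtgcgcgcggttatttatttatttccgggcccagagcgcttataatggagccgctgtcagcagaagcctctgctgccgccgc
Tmem163: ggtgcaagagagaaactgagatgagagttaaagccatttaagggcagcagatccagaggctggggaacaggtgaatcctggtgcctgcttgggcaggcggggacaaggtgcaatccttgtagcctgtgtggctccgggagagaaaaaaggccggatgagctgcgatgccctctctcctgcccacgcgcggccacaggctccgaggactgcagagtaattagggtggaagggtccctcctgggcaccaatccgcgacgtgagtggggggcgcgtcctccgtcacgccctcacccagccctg
The Ank window is 78.0% G or C, at or above 98.2% of the 32851 RefSeq promoter windows of the same length, whose median was 52.7%. The Tmem163 window is 61.7% G or C, at or above 75.3% of those windows. Its RefSeq start site lies 1527 bases inside the gene as the deposited annotation draws it, and other start sites were not examined. Both strands were searched for the E-box CACGTG, for the AP-1 motif TGACTCA and for the ETS motif GAGGAA. Other sequences bound by ETS factors, among them shorter cores, were not searched. GAGGAA occurred once in the Ank window, as TTCCTC on the printed strand, and neither of the other motifs occurred in it, so no match overlapped another. None of the 3 motifs occurred in the Tmem163 window. Among all windows, 28.3% held GAGGAA, 7.15% the E-box and 5.20% the AP-1 motif. Cadm1 is named without a promoter.

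Library totals ran from 29490567 to 66637052 counts, and between 20203 and 22662 genes had at least 1 count. Tyrobp, the check on the labels, stood at 3.22, 8.39 and 3.88 CPM (counts relative to the scaled library size) in the compound mutant and at 8.94 and 7.01 CPM in Tyrobp-/-;NLGF, against 1952 to 2306 CPM in the Inpp5d heterozygote and 1999 to 2560 CPM in NLGF. Inpp5d stood at 190 to 260 CPM in the compound mutant, 447 to 449 CPM in Tyrobp-/-;NLGF, 191 to 280 CPM in the Inpp5d heterozygote and 205 to 436 CPM in NLGF, so the Inpp5d heterozygote and NLGF libraries overlapped in the gene whose copy number separates them. The sample titles number the 5 Tyrobp-/- libraries in 1 unbroken run, below the numbers of the 6 others, so Tyrobp genotype and any shared handling or litter cannot be told apart. In bulk RNA, fewer cells that express a gene and less RNA per cell cannot be told apart.

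Ank was among the abundant transcripts of microglia with Tyrobp and was low without it. It stood at 102, 139 and 177 CPM in the compound mutant, 80.2 and 83.1 CPM in Tyrobp-/-;NLGF, 829, 911 and 1021 CPM in the Inpp5d heterozygote, and 1019, 844 and 963 CPM in NLGF. The 5 Tyrobp-/- libraries lay below the 6 others with a wide gap. Among all genes kept by the filter, 3.47% also had every Tyrobp-/- library below every other library, and since the 3 genes were chosen for such a pattern nothing is read from their place among them. The mean level in Tyrobp-/-;NLGF was 81.6 ± 2.03 CPM (SD, n = 2), which is 8.67% of the 942 ± 89.6 CPM in NLGF (SD, n = 3). The compound mutant kept 139 ± 37.6 CPM, or 15.1% of the 920 ± 96.2 CPM in the Inpp5d heterozygote (SD, n = 3 each). As fitted by edgeR, the log2 fold change was -3.53 (SE 0.229) for Tyrobp-/-;NLGF against NLGF and -2.73 (SE 0.187) for the compound mutant against the Inpp5d heterozygote.

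Tmem163 showed the widest relative gap of the 3 genes, at much lower levels. It stood at 0.716, 2.45 and 1.01 CPM in the compound mutant, 1.04 and 1.22 CPM in Tyrobp-/-;NLGF, 14.7, 26.3 and 25.5 CPM in the Inpp5d heterozygote, and 26.0, 19.4 and 30.0 CPM in NLGF. These rest on 38 to 154 counts per library in the compound mutant and 52 to 66 in Tyrobp-/-;NLGF, against 720 to 1308 in the Inpp5d heterozygote and 580 to 1887 in NLGF. Even the lowest of them was well above the floor of 3 counts, so the transcript was still detected in each Tyrobp-/- library. The mean was 1.13 ± 0.131 CPM in Tyrobp-/-;NLGF, 4.49% of the 25.1 ± 5.39 CPM in NLGF. In the compound mutant it was 1.39 ± 0.930 CPM, 6.27% of the 22.2 ± 6.47 CPM in the Inpp5d heterozygote. Compound replicate 2 held more than the other 4 Tyrobp-/- libraries, and Inpp5d heterozygote replicate 1 held the least among the 6 libraries with Tyrobp. The fitted log2 fold change was -4.47 (SE 0.582) for Tyrobp-/-;NLGF against NLGF and -3.99 (SE 0.475) for the compound mutant against the Inpp5d heterozygote, and without compound replicate 2 it was -4.69 in the second of these.

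Cadm1 had the smallest gap and the tightest libraries. It stood at 294, 295 and 315.5 CPM in the compound mutant, 242 and 248 CPM in Tyrobp-/-;NLGF, 498, 515 and 511 CPM in the Inpp5d heterozygote, and 573, 537 and 506 CPM in NLGF. The 5 Tyrobp-/- libraries again lay below the 6 others, but more transcript remained than for the transporters. The mean was 244.9 ± 4.16 CPM in Tyrobp-/-;NLGF, 45.5% of the 539 ± 33.5 CPM in NLGF, and 301 ± 12.2 CPM in the compound mutant, 59.3% of the 508 ± 8.95 CPM in the Inpp5d heterozygote. The fitted log2 fold change was -1.14 (SE 0.0855) for Tyrobp-/-;NLGF against NLGF and -0.75 (SE 0.0741) for the compound mutant against the Inpp5d heterozygote. These fold changes, like those of Ank and Tmem163, are the values the genes were chosen on and carry no test.

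**Figure D1:**
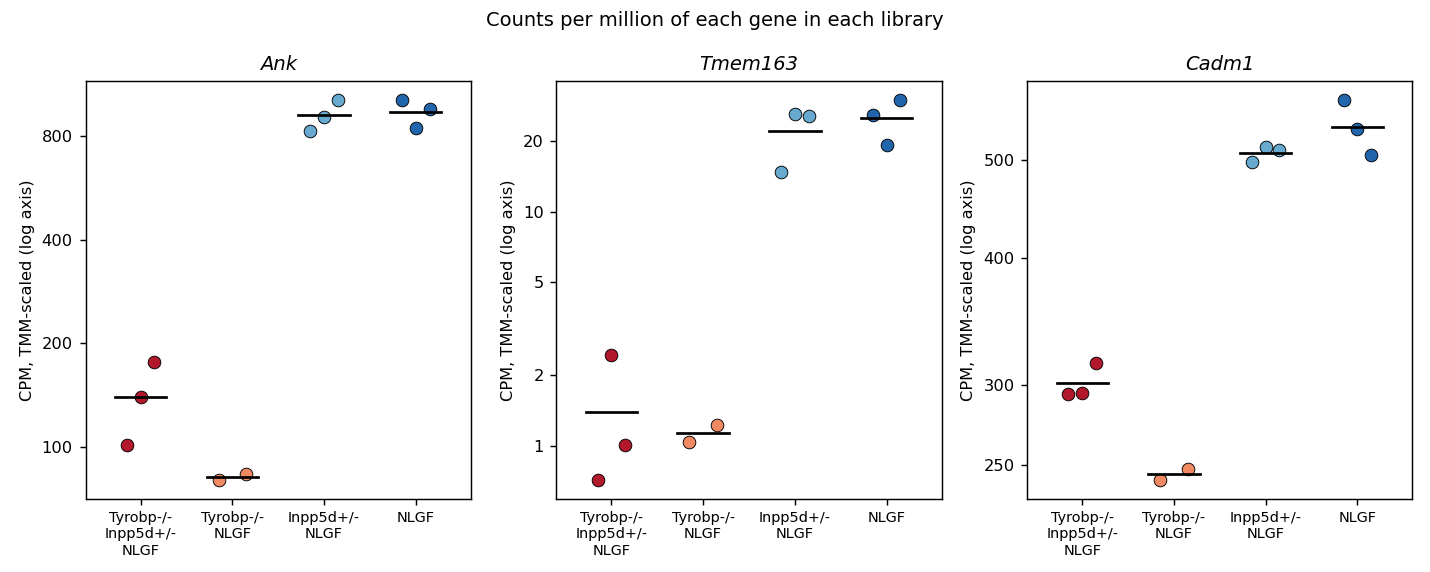
Level of Ank, Tmem163 and Cadm1 in each of the 11 libraries, as CPM on a log axis, by genotype; points are libraries and bars the group means. For each gene the 5 Tyrobp-/- libraries lie below the 6 others, with Cadm1 between 242 and 315.5 CPM without Tyrobp and between 498 and 573 CPM with it.

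The 4 genotypes ranked alike for the 3 genes: NLGF was highest, followed by the Inpp5d heterozygote, the compound mutant and Tyrobp-/-;NLGF. NLGF and the Inpp5d heterozygote overlapped in their libraries for each gene, so these neighbours were not apart. The Inpp5d heterozygote and the compound mutant did not overlap, a gap of the kind the genes were chosen for. Among all genes, 9.22% likewise had every compound library below every Inpp5d heterozygote library. The compound mutant and Tyrobp-/-;NLGF did not overlap for Ank and Cadm1, as for 9.13% of all genes in this direction. They did overlap for Tmem163, where the 2 Tyrobp-/-;NLGF libraries lay inside the range of the compound mutant.

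Scaled per kilobase of exon (RPKM), the balance between the 3 transcripts differed by genotype. Mean Ank was 38.6 RPKM in the compound mutant, 22.6 in Tyrobp-/-;NLGF, 255 in the Inpp5d heterozygote and 260.99 in NLGF. By this measure it was the gene with rank 1475 of 20390 in the compound mutant and rank 2415 in Tyrobp-/-;NLGF, against rank 214 in both the Inpp5d heterozygote and NLGF. Cadm1 stood at 25.5 RPKM in the compound mutant, 20.8 in Tyrobp-/-;NLGF, 43.1 in the Inpp5d heterozygote and 45.7 in NLGF. The ratio of Ank to Cadm1 in RPKM averaged 1.502 in the compound mutant and 1.09 in Tyrobp-/-;NLGF, against 5.92 in the Inpp5d heterozygote and 5.72 in NLGF. By RPKM the pyrophosphate transporter transcript thus outnumbered the adhesion transcript several-fold with Tyrobp and came closer to parity without it. This depends on the merged exon lengths, 3610 bases for Ank and 11798 for Cadm1. In CPM the means of Ank and Cadm1 were 942 and 539 in NLGF, and 81.6 and 244.9 in Tyrobp-/-;NLGF. Tmem163 was the least abundant of the 3 in every genotype, at 0.324 RPKM in the compound mutant, 0.263 in Tyrobp-/-;NLGF, 5.17 in the Inpp5d heterozygote and 5.85 in NLGF.

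Whether a missing Inpp5d copy went with a different level was tested within each Tyrobp genotype. These comparisons are not those the genes were chosen on, although they use libraries that the choice also used. A choice for low Tyrobp-/-;NLGF values can by itself make the compound mutant look higher than Tyrobp-/-;NLGF. The p values of the 3 genes are therefore given as a description, and no support is drawn from them. With Tyrobp present, none of the 3 genes was called in the Inpp5d heterozygote against NLGF by edgeR's quasi-likelihood test. The log2 fold change was -0.03 for Ank (SE 0.175, 95% interval -0.43 to 0.36, adjusted p = 1, edgeR), -0.18 for Tmem163 (SE 0.417, -1.11 to 0.75, adjusted p = 1, edgeR) and -0.08 for Cadm1 (SE 0.0737, -0.25 to 0.08, adjusted p = 1, edgeR). The intervals leave room for a larger difference in Tmem163 than in Cadm1. In this comparison 0 of 20390 genes were called (0%), with 951 at an unadjusted p under 0.05, and DESeq2 called 29 (0.145% of those with an adjusted p).

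Without Tyrobp, the loss of an Inpp5d copy went with higher means of the 3 genes, but none passed. Every compound library was above both Tyrobp-/-;NLGF libraries for Ank and for Cadm1, as was the case for 9.13% of all genes. The log2 fold change of the compound mutant against Tyrobp-/-;NLGF was 0.77 for Ank (SE 0.201, 95% interval 0.32 to 1.22, unadjusted p = 0.00346 and adjusted p = 1 by edgeR) and 0.30 for Cadm1 (SE 0.0831, 0.11 to 0.48, unadjusted p = 0.00503 and adjusted p = 1 by edgeR). The mean Ank level of 139 CPM in the compound mutant remained far below the 920 CPM of the Inpp5d heterozygote. For Tmem163 the log2 fold change was 0.31 (SE 0.496, -0.80 to 1.42, adjusted p = 1, edgeR), and it became -0.39 without compound replicate 2, the library with 2.45 CPM. In this comparison edgeR called 2 genes (0.00981%), neither of them a member. DESeq2 called 50 genes (0.255% of those with an adjusted p), Ank among them (log2 fold change 0.77, adjusted p = 0.0414). Since Ank was chosen for low values without Tyrobp, nothing is read from this call.

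The difference between the Inpp5d comparisons without and with Tyrobp, the interaction, was 0.80 on the log2 scale for Ank (SE 0.265), 0.49 for Tmem163 (SE 0.648) and 0.38 for Cadm1 (SE 0.111). It is at the same time the difference between the comparisons of Tyrobp genotypes on which the genes were chosen, so these values are a description and carry no test for the 3 genes. Across all genes edgeR called 0 interactions (0%), with 958 at an unadjusted p under 0.05, and DESeq2 called 36 (0.18% of those with an adjusted p).

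**Figure D2:**
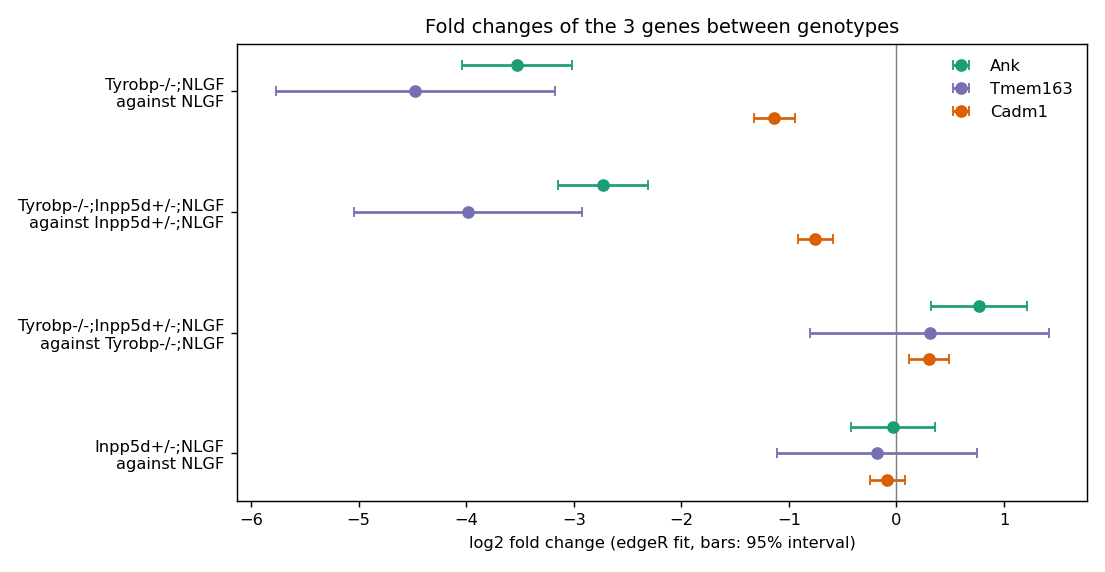
log2 fold changes of Ank, Tmem163 and Cadm1 in 4 comparisons between genotypes; points are edgeR estimates and bars their 95% intervals. The upper pairs of genotypes are those the genes were chosen on, with -4.47 for Tmem163 and -1.14 for Cadm1 in Tyrobp-/-;NLGF against NLGF; in the lowest comparison the 3 intervals include 0.

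Genes that work with the 3 proteins were counted from 5 lists without the members, 67 genes of which 54 were tested. In Tyrobp-/-;NLGF against NLGF, 0 of the 54 rose and 1 fell, where 0.863% of all genes were called. In the compound mutant against the Inpp5d heterozygote, 0 rose and 1 fell, where 0.897% of all genes were called. The median log2 fold change of the 54 was -0.16 and -0.13 in these comparisons, beside 0.00 and 0.02 over all genes. None was called in either Inpp5d comparison or in the interaction. DESeq2 called 6 of the 48 listed genes to which it gave an adjusted p in the first Tyrobp comparison, where it called 5.72% of all such genes, and 7 of 48 in the second, where it called 5.88%.

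Around pyrophosphate, 11 of 14 listed genes were tested, with a median log2 fold change of -0.25 in Tyrobp-/-;NLGF against NLGF and -0.29 in the compound mutant against the Inpp5d heterozygote. Slc37a2, a phosphate-linked sugar phosphate exchanger of the endoplasmic reticulum, fell in the compound mutant, where it stood at 141, 171 and 194 CPM, against 260.6, 270.4 and 318 CPM in the Inpp5d heterozygote (log2 fold change -0.75, SE 0.139, adjusted p = 0.0415, edgeR). In Tyrobp-/-;NLGF it stood at 202 and 169 CPM, against 276, 237 and 271 CPM in NLGF, which did not pass (log2 fold change -0.49, SE 0.156, adjusted p = 0.21, edgeR). The groups did not overlap in either comparison, as was the case for 9.22% of all genes in this direction in the compound comparison and 14% in the other. The call passed in 4 of 17 alternative settings. Enpp1 makes pyrophosphate from ATP outside the cell. It was named after its values were seen and passed in neither comparison, at 14.9 ± 4.79 CPM in the compound mutant and 10.1 ± 4.28 CPM in Tyrobp-/-;NLGF, against 32.7 ± 0.690 CPM in the Inpp5d heterozygote and 23.3 ± 2.60 CPM in NLGF (adjusted p = 0.108 and 0.132, edgeR). Enpp1 did pass in 2 of 17 alternative settings in the compound comparison and in 1 of 17 in the other. Entpd1, the ATP-cleaving ectoenzyme CD39 and the most abundant of the list, had higher means without Tyrobp and did not pass, at 645 ± 72.7 CPM in the compound mutant and 698 ± 46.3 CPM in Tyrobp-/-;NLGF, against 476 ± 33.7 CPM in the Inpp5d heterozygote and 499.8 ± 63.9 CPM in NLGF (adjusted p = 0.15 and 0.145, edgeR). Enpp3, Alpl, which encodes the phosphatase that degrades pyrophosphate, and Abcc6 were too low to test, with 0 or 1 counts per library.

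None of the 25 tested genes of zinc transport and buffering was called in either Tyrobp comparison, and their medians were -0.10 and -0.14. By edgeR, the gap in Tmem163 stood beside no called gene of the SLC30 exporters, the SLC39 importers or the metallothioneins. Over all genes 0.863% and 0.897% were called in these comparisons. A list of 25 with no call lies near that share, so nothing more is read from it. Metallothionein Mt1, the most abundant, had 98.0 ± 25.8 CPM in the compound mutant and 118 ± 15.4 CPM in Tyrobp-/-;NLGF, against 176 ± 11.3 CPM in the Inpp5d heterozygote and 157 ± 16.4 CPM in NLGF (adjusted p = 0.0669 and 0.465, edgeR). Slc39a7, which lets zinc out of the endoplasmic reticulum, differed little, at 60.7 ± 2.22 CPM in the compound mutant and 68.1 ± 17.0 CPM in Tyrobp-/-;NLGF, against 68.4 ± 6.80 CPM in the Inpp5d heterozygote and 64.2 ± 9.30 CPM in NLGF (adjusted p = 0.716 and 0.925, edgeR). The importer Slc39a4, named after its values were seen, had the smallest adjusted p of the list in the comparison of Tyrobp-/-;NLGF, where it had 10.8 ± 0.237 CPM, against 35.2 ± 11.6 CPM in NLGF (log2 fold change -1.70, SE 0.330, adjusted p = 0.0522, edgeR). In the compound mutant it had 15.2 ± 2.75 CPM, against 25.8 ± 7.13 CPM in the Inpp5d heterozygote (log2 fold change -0.77, SE 0.279, adjusted p = 0.275, edgeR). Slc39a4 passed in 3 of 17 alternative settings in Tyrobp-/-;NLGF against NLGF and in 0 of 17 in the compound comparison.

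All 3 listed binding partners of TMEM163 were tested, and the genes of the abundant ones, P2rx4 and Mcoln1, had lower means without Tyrobp. P2rx4, an ATP-gated channel, fell in Tyrobp-/-;NLGF, where it stood at 130 and 111 CPM, against 172, 200.4 and 213 CPM in NLGF (log2 fold change -0.70, SE 0.132, adjusted p = 0.0475, edgeR). In the compound mutant it stood at 170.1, 146 and 146 CPM, against 180.1, 193 and 205 CPM in the Inpp5d heterozygote, which did not pass (log2 fold change -0.32, SE 0.116, adjusted p = 0.269, edgeR). The call for P2rx4 lies close to the threshold and passed in 4 of 17 alternative settings, with an adjusted p of 0.0545 under another scaling (RLE) and of up to 0.388 elsewhere (edgeR). Mcoln1, which encodes TRPML1, passed in neither comparison, at 56.9 ± 2.56 CPM in the compound mutant and 50.2 ± 2.21 CPM in Tyrobp-/-;NLGF, against 79.7 ± 9.09 CPM in the Inpp5d heterozygote and 79.3 ± 7.82 CPM in NLGF (adjusted p = 0.12 and 0.0655, edgeR). Mcoln1 did pass in 1 of 17 alternative settings in the compound comparison and in 2 of 17 in the other.

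Around CADM1, 0 of 7 tested genes of the nectin and Cadm family and 0 of 8 tested cytoplasmic partners were called in either Tyrobp comparison. Nectin2 had 45.8 ± 2.51 CPM in the compound mutant and 35.5 ± 2.63 CPM in Tyrobp-/-;NLGF, against 38.2 ± 19.7 CPM in the Inpp5d heterozygote and 45.2 ± 2.57 CPM in NLGF. Nectin4, also an adhesion molecule, had 47.3 ± 9.33 CPM in the compound mutant and 44.1 ± 10.7 CPM in Tyrobp-/-;NLGF, against 47.0 ± 10.8 CPM in the Inpp5d heterozygote and 39.9 ± 7.71 CPM in NLGF. The protein 4.1 family gene Epb41l2 and the scaffold gene Mpp1, the most abundant cytoplasmic partners, had adjusted p values of 0.812 and 0.962 in the compound mutant against the Inpp5d heterozygote and of 0.979 and 0.995 in Tyrobp-/-;NLGF against NLGF (edgeR). Of the close relatives of Cadm1, Cadm4, named after its values were seen, held at most 7 counts in the Tyrobp-/- libraries, against 13 to 62 in the libraries with Tyrobp, and did not pass (adjusted p = 0.25 in the compound comparison and 0.193 in the other, edgeR). Among all genes, 3.47% likewise had every Tyrobp-/- library below every other library in CPM. Its relative Cadm3, also named after its values were seen, held 243 counts in compound replicate 1. It held at most 8 counts in any other library and was not tested. Crtam, the gene of the CADM1-binding lymphocyte receptor, had at most 5 counts in any library and was not tested.

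**Figure D3:**
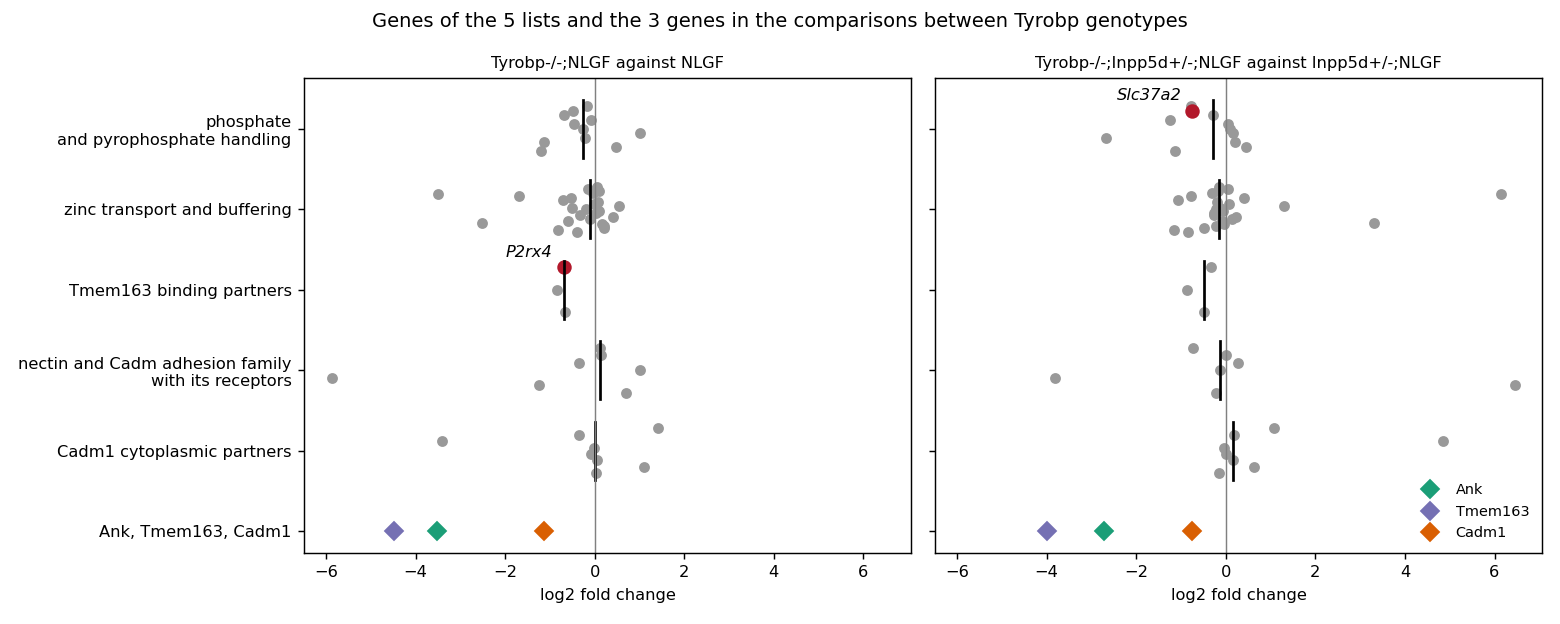
log2 fold changes of the 54 tested genes of 5 lists in both comparisons between Tyrobp genotypes, with the list medians as bars and the 3 members as diamonds below; red points passed the edgeR test. P2rx4 at -0.70 and Slc37a2 at -0.75 are the called genes, while the outlying grey points at the far left and right belong to genes with few counts.

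The genes whose profile was most like that of each member were sought among genes with a mean of at least 5 CPM. The measure was the root mean square difference between log2 CPM profiles, each centred on its mean over the 11 libraries. Gm and Rik symbols were compared but are left out of the nearest genes named here. Since the libraries divide by Tyrobp genotype, the measure mostly reads the size of that gap, and it is a description with no test. For Ank the nearest was Cst7, the cystatin F gene, at 0.192 log2 units, beside a median of 1.598 over all 10459 genes compared. Cst7 stood at 91.6, 84.6 and 162 CPM in the compound mutant, 67.6 and 69.2 CPM in Tyrobp-/-;NLGF, 737, 891 and 1045 CPM in the Inpp5d heterozygote, and 829, 706 and 933 CPM in NLGF, close to Ank in level as well as in shape. The lipoprotein lipase gene Lpl followed at 0.333, Baiap2l2 at 0.338, the amino acid oxidase gene Il4i1 at 0.397 and the growth factor gene Igf1 at 0.419.

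For Tmem163 the nearest were Igf1 at 0.578 log2 units, the transcriptional repressor gene Bhlhe40 at 0.591, the osteopontin gene Spp1 at 0.623, the fatty acid binding protein gene Fabp5 at 0.657 and the cation channel gene Trpm1 at 0.717, beside a median of 2.19. Igf1 stood in the list of Ank and in that of Tmem163. For Cadm1 they were genes with a gap of similar, smaller size: the tetraspanin gene Cd63 at 0.134, the lysosomal protease gene Ctsl at 0.136, Anp32b at 0.143, the lysosomal glucuronidase gene Gusb at 0.144 and Asph at 0.145, beside a median of 0.574. Cd63 had 1118 ± 78.7 CPM in the compound mutant and 963 ± 49.6 CPM in Tyrobp-/-;NLGF, against 1776 ± 129 CPM in the Inpp5d heterozygote and 1824 ± 163 CPM in NLGF. Among the members, Ank and Tmem163 differed by 0.745 log2 units, Ank and Cadm1 by 1.09, and Tmem163 and Cadm1 by 1.72. Ank had rank 7 among the genes nearest to Tmem163, with Gm and Rik symbols counted. The same 5 genes were nearest to each member with a prior count of 0.5 in place of 2.

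**Figure D4:**
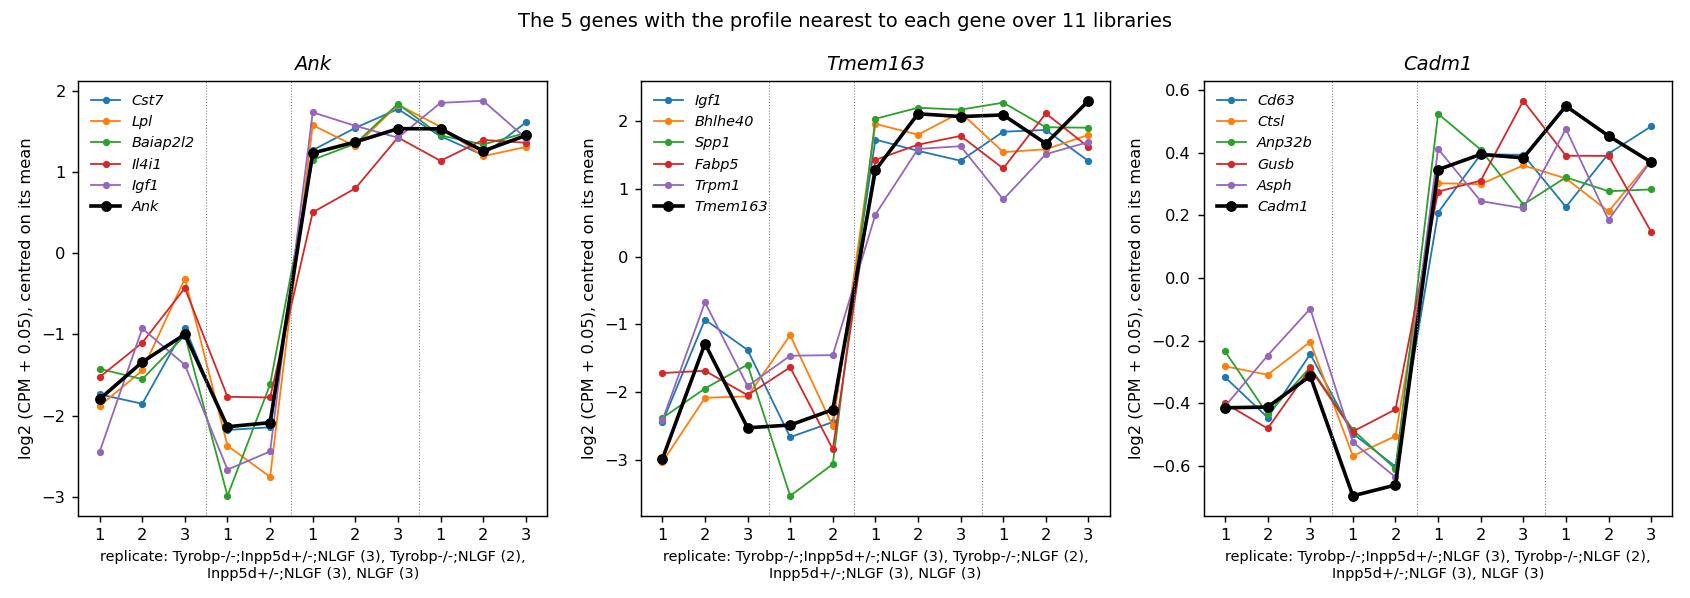
Centred log2 levels of each member (black) and its 5 nearest genes (colours) in the 11 libraries, ordered by genotype and separated by dotted lines. The step between the 5 Tyrobp-/- libraries and the 6 others spans several log2 units for Ank and Tmem163 and about 1 for Cadm1.

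The genes beside and inside each member were read from the deposited annotation. Mir7117 lies inside Ank on the same strand, and its 10 to 18 counts in the Tyrobp-/- libraries and 68 to 123 in the others cannot be told apart from reads of Ank. Otulin overlaps the 3′ part of Ank on the opposite strand, where reads cannot be assigned to a strand, and did not pass (adjusted p = 0.443 in the compound comparison and 0.574 in the other, edgeR). Otulinl, a relative of the deubiquitinase gene Otulin, is the next gene after Ank, 60160 bases away, and moved the opposite way. It stood at 1129, 1063 and 1054 CPM in the compound mutant and 1100 and 1067 CPM in Tyrobp-/-;NLGF, against 677, 748 and 624 CPM in the Inpp5d heterozygote and 716, 727 and 808 CPM in NLGF. The 5 Tyrobp-/- libraries thus lay above the 6 others, as for 2.7% of all genes. Otulinl rose in the compound mutant against the Inpp5d heterozygote (log2 fold change 0.66, SE 0.0836, adjusted p = 0.00757, edgeR) and in Tyrobp-/-;NLGF against NLGF (0.53, SE 0.0922, adjusted p = 0.0335, edgeR). These calls passed in 15 and in 8 of 17 alternative settings.

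The neighbours of Tmem163 and Cadm1 were not called in either Tyrobp comparison. Mgat5 overlaps the end of Tmem163 on the opposite strand and had 30.1 ± 3.93 CPM in the compound mutant and 31.7 ± 11.02 CPM in Tyrobp-/-;NLGF, against 25.2 ± 5.07 CPM in the Inpp5d heterozygote and 20.2 ± 5.67 CPM in NLGF. Its counts in the shared stretch cannot be told apart from those of Tmem163. Ccnt2, the next gene toward higher coordinates from Tmem163, had 44.2 ± 15.5 CPM in the compound mutant and 35.6 ± 8.72 CPM in Tyrobp-/-;NLGF, against 35.8 ± 3.46 CPM in the Inpp5d heterozygote and 44.0 ± 0.520 CPM in NLGF. Bud13 and Nxpe4, on either side of Cadm1, lie 1231063 and 303908 bases away.

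Markers of the sorted cells and of others were summed beside these values. The 12 microglia markers summed to 58487 to 60458 CPM in the compound mutant, 59185 to 59925 in Tyrobp-/-;NLGF, 53549 to 54964 in the Inpp5d heterozygote and 54429 to 64281 in NLGF, with all 12 detected in every library. Tmem119 was the 1 marker of the list that was called in both Tyrobp comparisons. It was higher by 0.66 on the log2 scale in the compound comparison and by 0.64 in the other (adjusted p = 0.00493 and 0.00885, edgeR). Over all genes, 0.897% and 0.863% were called in these comparisons. The sums of the 5 Tyrobp-/- libraries lay above those of the Inpp5d heterozygote and of NLGF replicates 1 and 2 (54429 and 54740 CPM). They lay below that of NLGF replicate 3 (64281 CPM). The part of cell composition in the levels of Ank, Tmem163 and Cadm1 was not tested. The 12 neutrophil markers, among them S100a8, differed most between libraries, with sums of 256 to 9961 CPM in the compound mutant and 4448 to 19258 in Tyrobp-/-;NLGF, against 54.7 to 190 in the Inpp5d heterozygote and 0.721 to 233.2 in NLGF. All 12 were detected in the 5 Tyrobp-/- libraries. The 10 monocyte markers moved with them, at 127 to 1140 CPM in the compound mutant and 516 to 2076 CPM in Tyrobp-/-;NLGF, against 17.5 to 80.0 CPM in the Inpp5d heterozygote and 28.2 to 59.0 CPM in NLGF. None of the neutrophil and monocyte markers was called by edgeR, and their part in the levels of the 3 genes was not tested beyond the values that follow.

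Leaving out the 2 libraries with the most S100a8, Tyrobp-/-;NLGF replicate 1 and compound replicate 2, left 1 Tyrobp-/-;NLGF library, with 83.1 CPM of Ank, 1.22 of Tmem163 and 248 of Cadm1. Compound replicate 1, which had the lowest neutrophil sum of the Tyrobp-/- libraries (256 CPM), held 102 CPM of Ank, 0.716 of Tmem163 and 294 of Cadm1. With the neutrophil markers as a covariate the log2 fold change in Tyrobp-/-;NLGF against NLGF was -3.71 for Ank, -5.36 for Tmem163 and -1.04 for Cadm1. The neutrophil sum was at least 256 CPM in each Tyrobp-/- library and at most 233.2 CPM in each library with Tyrobp. Neutrophil markers thus ran alongside Tyrobp genotype, and this fit cannot tell them apart. Neuron markers, relevant because neurons also express Cadm1, were highest in compound replicate 1 (22.8 CPM, all 10 detected) and summed to 2.57 to 11.1 CPM in the other 10 libraries. Their part in the level of Cadm1 was not tested. The 8 dendritic cell markers summed to 152 to 178 CPM in the compound mutant and 178 to 186 in Tyrobp-/-;NLGF, against 97.3 to 138 in the Inpp5d heterozygote and 112 to 144 in NLGF, most of it from Snx22. Of the defining genes of the dendritic cell class that carries CADM1, Xcr1 had 35 to 269 counts and was detected in all 11 libraries, while Clec9a had 0 counts in 6 of the 11 and at most 80 in any. The part of such cells in the level of Cadm1 was not tested.

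**Figure D5:**
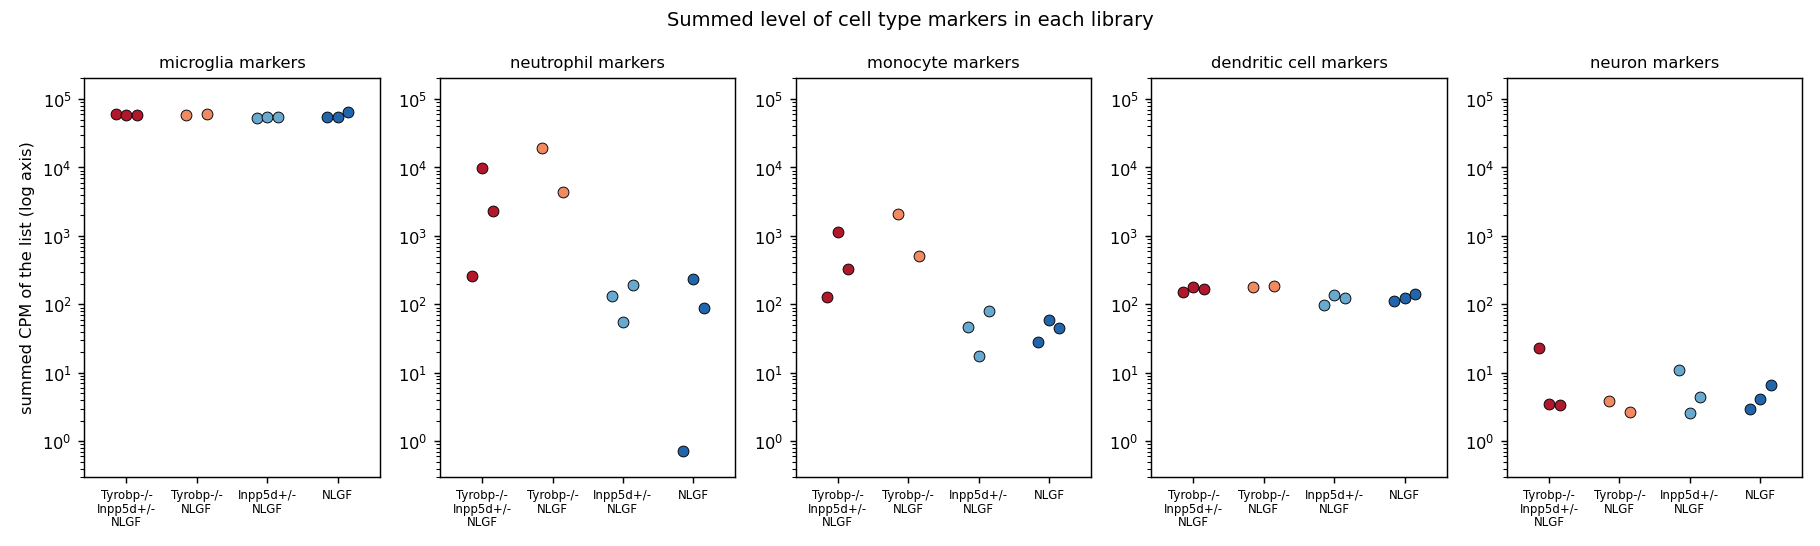
Summed CPM of the markers of 5 cell types in each library, on a log axis, by genotype; each point is a library. Microglia markers vary little between genotypes, while neutrophil markers reach 19258 CPM in a Tyrobp-/-;NLGF library and stay at or below 233.2 CPM in the 6 libraries with Tyrobp.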

How the data were processed

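RNA from microglia isolated by flow cytometry was made into cDNA with a SMART-Seq v4 kit, per the labels' protocols. The values analysed were the raw counts per gene deposited by the authors for 11 libraries. Per the submitters' processing notes, STAR 2.7.3a, featureCounts 1.6.4 and the builds GRCm38.p6 and mm10 were used; for the annotation release, strand setting and multi-mapped reads: not given in the sources used here. The 37 mitochondrial rows held 0 counts.

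Genes were kept by filterByExpr (minimum count 10, minimum total 15), which left 20390 of 55401. Counts were scaled by TMM and tested with edgeR 4.0.16 in R 4.3.3 (quasi-likelihood, all 11 libraries, 1 coefficient per genotype). Adjustment was by Benjamini-Hochberg over all genes kept, with a threshold of 0.05. limma 3.58.1 gave the limma-voom alternative named below and none of the main tests. CPM used TMM-scaled library sizes, and RPKM the deposited gene lengths. log2 profiles had a prior count of 2. The floor of 3 counts equals 0.0477 to 0.1 CPM and covers counting error only. None of the 55 pairs of libraries was identical. The procedure was tested on simulated data. Alternatives were RLE scaling, quality-weighted limma-voom, DESeq2 1.42.0, no filter on low counts, a neutrophil marker covariate, leaving out the 2 libraries with the most S100a8, and leaving out each library.

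The 3 genes, the gene lists and the markers were chosen with earlier results of these data known. Named from each list were the genes called in either comparison between Tyrobp genotypes and the 2 with the highest mean RPKM; from the profile comparison the 5 nearest genes with a mean of at least 5 CPM, leaving out Gm and Rik symbols; and the genes overlapping or next to each member. The interaction, planned as a test of the 3 genes, is given for them without one. Enpp1, Slc39a4, Cadm3, Cadm4 and Tmem119 were named after their values were seen. Promoter sequences are RefSeq's, matched by symbol for 2 of the 3 genes.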

Additional observations from a re-analysis of the deposited data

How the results depend on the processing

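Fold changes and counts of calls were recomputed under 17 alternatives, mean levels under 2 other scalings and the nearest genes under 1 other prior count. Those for Otulinl and Mir7117, and 2 for the listed partner genes (the covariate and the 2 S100a8-rich libraries), were added after the data were seen. The direction of the 3 genes in both Tyrobp comparisons held in each of the 17, and Tmem163 had the fewest counts, 38 to 154 in the Tyrobp-/- libraries. The cause of the shifts below was not tested. With the neutrophil covariate the log2 fold changes in Tyrobp-/-;NLGF against NLGF were -3.71 for Ank, -5.36 for Tmem163 and -1.04 for Cadm1, and that of Cadm1 in the compound mutant against the Inpp5d heterozygote was -0.71. In Tyrobp-/-;NLGF against NLGF 176 genes were called, against 1035 with DESeq2, 327 with limma-voom, 14 with the covariate, 27 without the 2 S100a8-rich libraries, and 31 to 201 when 1 library was left out (31 without Tyrobp-/-;NLGF replicate 1, 36 without its replicate 2, 88 without NLGF replicate 2, 108 without NLGF replicate 3). In the compound mutant against the Inpp5d heterozygote 183 were called, against 1042, 46 with the covariate, 50 without the 2 libraries, and 66 to 183 with 1 library left out (66 without compound replicate 1, 79 without its replicate 2, and 104, 79 and 90 without Inpp5d heterozygote replicates 1, 2 and 3). For the listed partner genes the 1 call in Tyrobp-/-;NLGF against NLGF became 0 with RLE scaling, 0 without the filter, 6 with DESeq2, 3 with limma-voom, 0 with the covariate, 0 without the 2 libraries and 0 to 1 with 1 library left out; in the compound comparison it became 0 without the filter, 7 with DESeq2, 0 with the covariate and 0 to 2 with 1 library left out. In the Inpp5d heterozygote against NLGF, DESeq2 called 29 genes and leaving out 1 library gave 0 throughout; the log2 fold change of Ank ran from -0.12 to 0.036 (0.036 without Inpp5d heterozygote replicate 1, 0.027 without NLGF replicate 1) and that of Tmem163 from -0.34 to 0.045 (without Inpp5d heterozygote replicate 1). In the compound mutant against Tyrobp-/-;NLGF, the 2 calls became 1 without the filter, 50 with DESeq2, 0 with limma-voom, 0 with the covariate, 0 without the 2 libraries, and 0 to 1 with 1 library left out. There Ank passed with DESeq2 (0.77, adjusted p = 0.0414), while its adjusted p was 0.691 with limma-voom and at least 0.396 by edgeR with 1 library left out; Tmem163 was -0.50 without the 2 libraries and -0.39 to 0.62 with 1 left out. The interaction was called for 36 genes by DESeq2 and 0 to 1 with 1 library left out; that of Tmem163 was -0.33 without the 2 libraries and -0.21 to 0.80 with 1 left out, lowest without compound replicate 2. No paired analysis was possible because the replicate numbers only follow the order of the libraries and the titles share no number between genotypes.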
